A study of Arabidopsis thaliana with 18 samples.

Results

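AGO1-bound miRNAs of Arabidopsis thaliana Col-0 rosette leaves were compared between plants infected with the necrotrophic fungus Alternaria brassicicola and plants left untreated, in 3 libraries per group. All families and all distinct sequences of the abundance table were included, so that no measured value selected them. Of 101 families and 476 distinct sequences in the table, 82 families and 305 sequences were listed in at least 1 of the 6 libraries. The Alternaria group was sprayed with the strain named in the labels at 1000000 spores per ml in 0.01% Silwet L 77, a wetting agent, and leaves were taken on day 3. For the untreated group no harvest day is recorded. Plants of both groups were grown in short days on soil for 5 to 6 weeks and were of the ecotype Col-0, and the immunoprecipitation used an antibody against AGO1 (Agrisera). The untreated libraries are titled as AGO rather than AGO1 immunoprecipitations, and their antibody entry names AGO1. A further 3 AGO1 libraries came from mock-treated plants, without a recorded harvest day or Silwet concentration. They entered the same fit as the 6 libraries, through the scaling, the filter on low counts and the estimate of spread. Another 9 libraries of total small RNA were used only beside these results.

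In plants, miRNAs are cut from hairpin transcripts by DICER-LIKE1, and the strand that guides silencing is loaded into an ARGONAUTE protein while the other strand is discarded. AGO1 is the main ARGONAUTE of the miRNA pathway, prefers guides that begin with U, and represses target transcripts by cleavage and by blocking translation. A miRNA recovered with AGO1 is therefore in the complex that acts on targets, and its level there can differ from its level in total RNA.

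The sequences on which the results turn are given first, as the deposited table lists them, with T for U and the seed (bases 2 to 8 from the 5′ end) in capitals. Positions are on build TAIR10, 1-based, and each name was built from the MIR gene, the hairpin arm and the length. Of the following 6 sequences, which were higher after Alternaria, the first 5 are the main sequences of families that were higher too; a tRNA-matching family is described further on.
miR5651-5p 21 nt: tTGTGCGGttcaaatagtaac
miR163-3p 24 nt: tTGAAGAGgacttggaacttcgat
miR399b-3p 21 nt: tGCCAAAGgagagttgccctg
miR827-3p 21 nt: tTAGATGAccatcaacaaact
miR846-3p 21 nt: tTGAATTGaagtgcttgaatt
miR396a-5p 21 nt: tTCCACAGctttcttgaactg
The last of these belongs to a family whose total was not higher, and it differs from its more abundant partner at 1 position, G21T, counted from the 5′ end with the base of miR396a first.
miR396b-5p 21 nt: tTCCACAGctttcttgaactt
The next sequences were lower after Alternaria, and the miR398b guide strand, whose level did not pass the test, is shown beside the other strand of its hairpin.
miR164a-5p 21 nt: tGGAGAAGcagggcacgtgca
miR398b-5p 20 nt: gGGTTGATatgagaacacac
miR398b-3p 21 nt: tGTGTTCTcaggtcacccctg
miR398a-3p 21 nt: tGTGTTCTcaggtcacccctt
miR408-3p 18 nt: tGCACTGCctcttccctg
miR850-5p 20 nt: tAAGATCCggactacaacaa
The capitals show that miR396a and miR396b have the same seed, as do miR398a-3p and miR398b-3p, and that no other seed is shared within this set.

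MIR5651 lies on chromosome 3 (chr3:17178489-17178509, plus strand, for the mature sequence), MIR163 on chromosome 1 (chr1:24884359-24884382, plus) and MIR846 on chromosome 1 (chr1:22577662-22577682, plus). The miR399b-3p sequence matches MIR399b (chr1:23345387-23345407, minus) and MIR399c, and the miR164a-5p sequence matches MIR164a (chr2:19520770-19520790, plus) and MIR164b, so their reads could not be assigned to 1 gene. miR827-3p is encoded at chr3:22122811-22122831 (minus), miR396a-5p at chr2:4142443-4142463 (minus) and miR396b-5p at chr5:13611808-13611828 (plus). All lie within annotated MIR genes.

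In units of 1000000, the 6 libraries held between 10.8 and 20.3 miRNA reads, and miRNAs made up 80.9 ± 1.93% of genome-matched reads in untreated and 80.0 ± 0.98% in Alternaria libraries (mean ± SD, n = 3; exact two-sided permutation test, p = 0.5, smallest possible 0.1). Reads that began with U made up 99.77 to 99.80% of miRNA reads in each of the 6 libraries, against 71.6 to 85.6% in the 9 total libraries. miR390, which is known as a partner of AGO7, stood at 231.7, 234.3 and 327.3 counts per 1000000 miRNA reads (CPM) in untreated AGO1 libraries and averaged 127822 CPM in untreated total libraries. The AGO1 values were scaled over the 9 AGO1 libraries and the total value over all 18 libraries, so only their order of size can be compared. The table lists small RNAs matched to known miRNA families and no mRNA, so the leaf label could not be checked against leaf transcripts. A value of 0 in the listing allows for as many as 28 reads of that sequence per library, or 1.41 to 2.32 CPM. CPM are shares of the miRNA pool, so they do not show whether more of a miRNA was bound in absolute amount, and in whole leaves fewer cells of a type and less RNA per cell cannot be told apart.

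Of 79 families with enough reads to be tested, 6 (7.59% of those tested) were higher and 1 (1.27%) was lower in Alternaria than in untreated AGO1 libraries (limma on log2(CPM + 1), Benjamini-Hochberg adjusted p under 0.05 over all 79). The higher families were miR5651, miR163, miR399, miR827, miR846 and miR6478, and the lower family was miR164. At an unadjusted p under 0.05 there were 11 higher and 10 lower families, and the median log2 change of all 79 was -0.07. In 12 families (15.2%) all 3 Alternaria libraries lay above all 3 untreated libraries, and in 11 (13.9%) they lay below. The 7 families past the threshold together took 0.102% of the pooled miRNA reads. The other 22 families were not tested, of which 19 were listed at 0 in all 6 libraries.

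**Figure D1:**
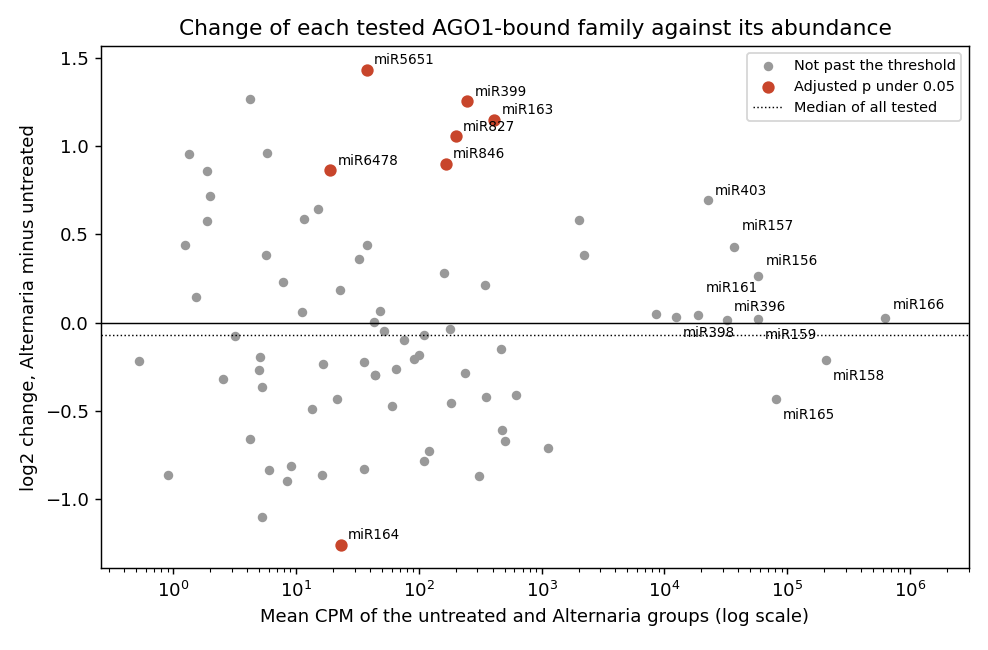
Each point is 1 of the 79 tested families, with its mean CPM on a log axis and its log2 change (Alternaria minus untreated) on the linear axis; red points have an adjusted p under 0.05. None of the 7 red points is among the 10 most abundant families, which lie between -0.43 and 0.69.

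miR5651 showed the largest rise among the 7. It stood at 19.4, 19.9 and 19.6 CPM in the untreated libraries and at 57.8, 70.001 and 40.4 CPM in the Alternaria libraries, replicates 1 to 3 in each case. On the scaling used for families the untreated values were nearly equal, and every Alternaria value was above them. That closeness depends on the scaling factors of the untreated libraries, 0.780, 0.973 and 1.12 for families and 0.937, 0.957 and 1.16 for sequences. The difference was 1.43 ± 0.28 on the log2 scale (± SE, adjusted p = 0.00227), or 2.85-fold between the group means. Mock libraries held 14.9 ± 2.17 CPM (SD, n = 3), and Alternaria exceeded mock as well (log2 1.82, adjusted p = 6.37e-05). Without Alternaria replicate 2 the adjusted p against untreated was 0.0500, no longer under the threshold, at a log2 change of 1.26.

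miR163 is a young miRNA of Arabidopsis that targets SABATH methyltransferases, enzymes that methylate small carboxylic acids. The family rose from 258.2, 250.0 and 256.2 CPM in untreated to 581.2, 661.4 and 470.6 CPM in Alternaria libraries. As for miR5651, the untreated libraries differed little on the family scaling, and the groups did not overlap. The log2 difference was 1.15 ± 0.27 (adjusted p = 0.00672), and against mock, at 187.6 ± 43.6 CPM, it was 1.61 (adjusted p = 9.74e-05). Without Alternaria replicate 2 or 3 the adjusted p against untreated became 0.0823 or 0.0597. Unusually for a plant miRNA, the mature form is 24 nt long, and this form held 70.2% of the family's reads. It was at 114.5, 175.1 and 186.6 CPM in untreated and at 400.4, 426.5 and 404.7 CPM in Alternaria libraries (log2 1.40 ± 0.28, adjusted p = 0.00856). It lost the call without untreated replicate 2 (adjusted p = 0.0507). The other 7 tested length variants of miR163-3p all had positive log2 changes, and none of them passed the test. Family and sequence values carry separate scaling factors and are not to be subtracted from each other.

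Both tested members of the phosphate list rose, beside 7.59% of all families tested. A further member, miR2111, is in the table but was listed at 0 in all 9 AGO1 libraries and was not tested. miR399 targets PHO2, an E2 conjugase that limits phosphate uptake and transport, and miR827 targets NLA, a ubiquitin ligase that limits phosphate transporters. miR399 stood at 100.4, 176.5 and 165.4 CPM in untreated and 281.3, 336.3 and 425.8 CPM in Alternaria libraries. Untreated replicate 1 was the lowest of all 6, and the groups did not overlap. The log2 difference was 1.25 ± 0.30 (adjusted p = 0.00672). Mock libraries reached 200.1 ± 81.6 CPM, their highest value of 291.4 lay within the Alternaria range, and the difference from mock did not pass (log2 0.85, adjusted p = 0.107). Of the family's reads, 94.2% belonged to miR399b-3p, which rose (log2 1.38 ± 0.37, adjusted p = 0.0375). This sequence kept its call in only 2 of 9 fits that left out 1 library, with an adjusted p of up to 0.164, and lost it with library totals, in the fit of 6 libraries and with run 1 alone, with an adjusted p of up to 0.0620. miR399a-3p, with 5.84% of the reads, had a log2 change of 0.76 and did not pass (adjusted p = 0.110). Without untreated replicate 1, Alternaria replicate 2 or Alternaria replicate 3, the adjusted p of the family was 0.138, 0.0823 or 0.205.

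miR827 rose from 173.3, 110.0 and 103.6 CPM to 341.0, 284.1 and 184.5 CPM. Alternaria replicate 3 lay only slightly above untreated replicate 1, the highest of its group. The log2 difference was 1.05 ± 0.29 (adjusted p = 0.0171), and against mock it was 1.19 (adjusted p = 0.00800). Its sequences of 21 and 20 nt, which share the 5′ end and the seed, both rose, by 1.13 ± 0.28 (adjusted p = 0.0290) and 1.13 ± 0.30 (adjusted p = 0.0406) on the log2 scale. Without single libraries the 21 nt form passed in 3 of 9 fits and the 20 nt form in 4 of 9, with an adjusted p of up to 0.141 and 0.167. Only 3 of 9 fits that left out 1 library kept the family past the threshold; adjusted p was 0.0937 without untreated replicate 2, 0.0873 and 0.0791 without mock replicates 1 and 3, and 0.110, 0.122 and 0.0667 without Alternaria replicates 1, 2 and 3. In the fit of the 6 libraries alone its adjusted p was 0.0837.

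miR846 targets genes of jacalin-like lectins and was described mainly from roots. It rose from 110.6, 117.0 and 116.0 CPM to 168.1, 254.8 and 230.4 CPM (log2 0.90 ± 0.26, adjusted p = 0.0283). On the family scaling the untreated libraries were again close together. All Alternaria libraries were above them and above mock, which reached 156.3 CPM. The strand from the 3′ arm held 97.5% of reads and rose (log2 1.02 ± 0.29, adjusted p = 0.0416), whereas the 5′ strand stood at a log2 change of -0.10 (adjusted p = 0.920). The call of the 3′ strand was kept in 2 of 9 fits without 1 library, with an adjusted p of up to 0.172, and under 8 of 14 other settings. miR847, the other tested family of the list of families described from other organs, had a log2 change of -0.42 and did not pass. With scaling to library totals or to genome-matched reads the adjusted p of miR846 was 0.147 or 0.142. It was 0.138, 0.0878 and 0.0561 without untreated replicate 1, untreated replicate 2 and mock replicate 1, and 0.139 and 0.211 without Alternaria replicates 2 and 3.

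miR6478 consists of 1 sequence of 19 nt that begins with C. Its first genome match by position lies in a tRNA gene, AT1G49460. It matches no annotated MIR gene, so miR6478 may not be a miRNA by its locus. It stood at 11.1, 13.1 and 15.4 CPM in untreated and 21.8, 29.0 and 23.5 CPM in Alternaria libraries (log2 0.86 ± 0.27, adjusted p = 0.0424). The groups did not overlap, and the mock values, up to 16.8 CPM, lay below Alternaria too. This was the family nearest to the threshold from inside. Its adjusted p was 0.138 and 0.0937 without untreated replicates 1 and 2, 0.0561 without mock replicate 1, and 0.0983, 0.127 and 0.211 without Alternaria replicates 1, 2 and 3. It was also past the threshold no more with library totals (0.180), genome-matched scaling (0.145), no filter on low counts (0.0518) or run 2 alone (0.110), each an adjusted p.

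miR164 restricts NAC transcription factors, among them the CUP-SHAPED COTYLEDON genes and ORE1, a regulator of leaf ageing. It was the only family that fell. Untreated libraries held 36.2, 23.3 and 39.2 CPM, mock libraries 22.3, 15.6 and 27.2 CPM, and Alternaria libraries 13.7, 9.28 and 16.7 CPM. All Alternaria values lay below all untreated values, and the mock values overlapped both groups. The log2 difference from untreated was -1.26 ± 0.30 (adjusted p = 0.00672), and that from mock, -0.68, did not pass (adjusted p = 0.221). The guide strand, miR164a-5p, made up 67.1% of the family's reads and fell by 1.30 ± 0.31 on the log2 scale (adjusted p = 0.0238), a call kept in 5 of 9 fits without 1 library (adjusted p of up to 0.107). miR164b-3p had a log2 change of -0.82 (adjusted p = 0.233). In total small RNA the same family was abundant, at 28575 CPM in untreated and 21283 CPM in Alternaria libraries, scaled over all 18 libraries. The adjusted p of its change in AGO1 was 0.138, 0.0561 and 0.0914 without untreated replicate 1, mock replicate 1 and Alternaria replicate 2.

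**Figure D2:**
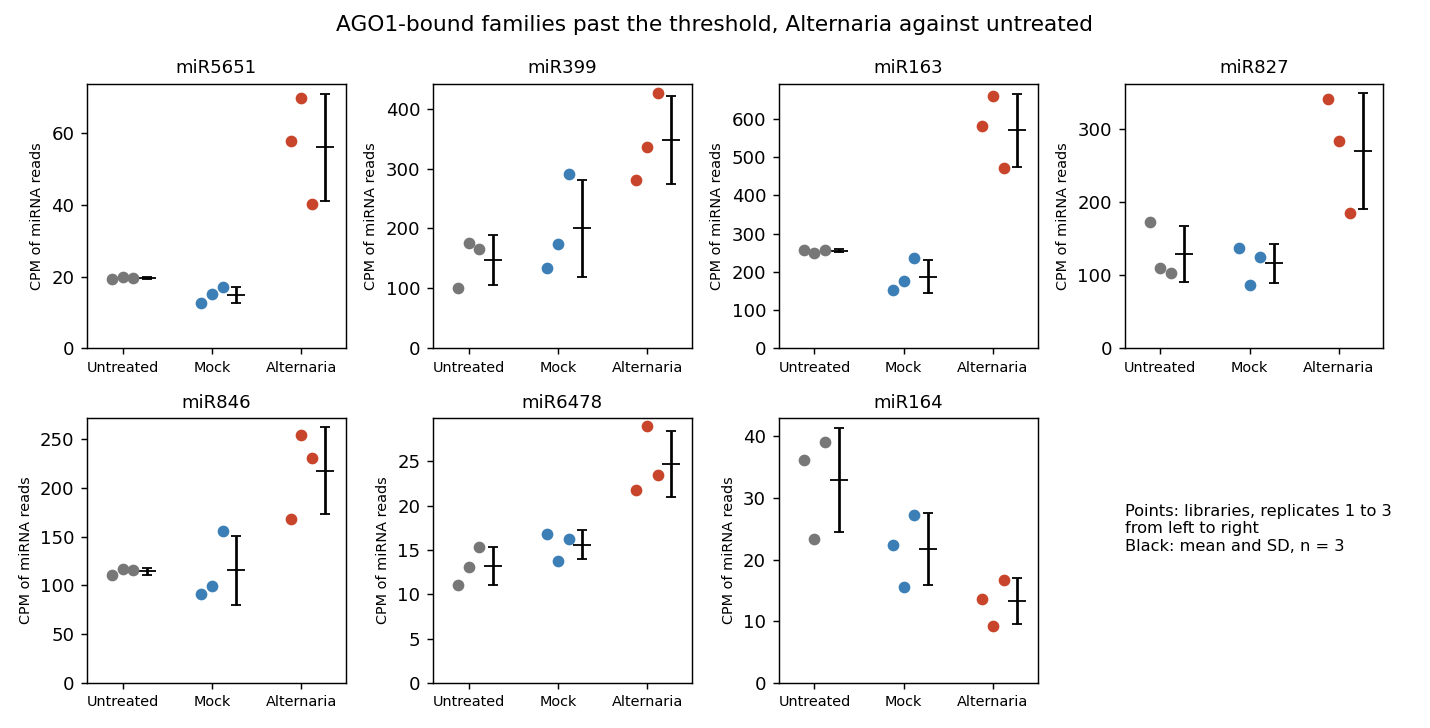
Each panel gives 1 family past the threshold, with CPM of miRNA reads on a linear axis from 0 and the 3 replicates of each treatment as points; black marks are mean and SD (n = 3). In 6 panels the Alternaria points lie above all untreated points, and for miR164, from 9.28 to 16.7 CPM, they lie below them.

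The same untreated libraries enter the comparisons with mock, and the mock and Alternaria comparisons share libraries as well. Between mock and untreated AGO1 libraries 0 of 79 families (0%) passed with limma and 0 with limma-voom, and 5 had an unadjusted p under 0.05 with either. Between Alternaria and mock, 4 families (5.06%) passed, which were miR5651, miR163, miR827 and miR846.

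The families just outside the threshold were lower in Alternaria libraries. miR840 stood at 45.7, 50.8 and 41.5 CPM in untreated and 23.8, 29.3 and 23.5 CPM in Alternaria libraries (log2 -0.83 ± 0.27, adjusted p = 0.0529). miR408 stood at 547.4, 312.1 and 338.7 CPM against 243.9, 236.8 and 163.2 CPM (log2 -0.87 ± 0.29, adjusted p = 0.0529). In neither family did the groups overlap, and neither passed. Of 24 alternatives run, however, miR840 was past the threshold under 10 and miR408 under 7. Without untreated replicate 3 both passed (adjusted p = 0.0317), miR840 did so in the fit of the 6 libraries alone (adjusted p = 0.0227), and miR408 with run 2 alone (adjusted p = 0.0242).

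Of the 4 families on the copper list, miR397, miR398 and miR408 were in the table and were tested; they repress laccases, plantacyanin and copper/zinc superoxide dismutases when copper is scarce. None of the 3 passed, and their median log2 change was -0.87 beside -0.07 for all families. miR397 was scarce, at 11.2, 12.4 and 9.65 CPM in untreated and 4.77, 7.98 and 4.21 CPM in Alternaria libraries (log2 -0.90, adjusted p = 0.119). miR398 was among the 10 most abundant families, at 8746, 11184 and 17222 CPM against 10608, 15090 and 11211 CPM, with a log2 change of 0.03 (adjusted p = 0.958). The mock libraries of miR398, at 19087, 18692 and 25997 CPM, lay above every library of both other groups, and the difference between Alternaria and mock did not pass (adjusted p = 0.0915).

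Among families of the silencing machinery, miR168 targets AGO1 itself, miR403 targets AGO2, and miR162 and miR838 are tied to DICER-LIKE1. None of the 4 passed (median log2 0.22). miR403, at 2.10% of reads, ranged from 9968 to 29479 CPM in untreated and from 25026 to 30829 CPM in Alternaria libraries (log2 0.69 ± 0.29, adjusted p = 0.134). The groups overlapped through untreated replicate 3, the highest of its group, and without that library miR403 passed (log2 1.11, adjusted p = 0.00185). miR168 had a log2 change of 0.38 (adjusted p = 0.429), miR162 of 0.05 (adjusted p = 0.944) and miR838 of -0.19 (adjusted p = 0.827).

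The 10 most abundant families, miR166, miR158, miR165, miR159, miR156, miR157, miR396, miR403, miR161 and miR398, each held at least 1% of reads, and none passed. Their log2 changes ranged from -0.43 to 0.69, and the lowest adjusted p was 0.134. The family sum of miR166, a repressor of class III HD-ZIP factors, came to 59.5% of the reads and had a log2 change of 0.03 ± 0.26. Its main sequence, miR166a-3p, made up 86.6% of that sum. Each of the 22 sequences listed under more than 1 family was counted in full in every such family. The shares of families such as miR165 and miR166 therefore overlap and are not to be added. miR157, which like miR156 targets SPL factors of phase change, was higher in every Alternaria library than in any untreated one, 36225 to 50508 against 29607 to 34076 CPM, and did not pass (log2 0.43, adjusted p = 0.246). Its main sequence is counted in the miR156 family too, so the values of both families are not independent.

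Of 11 tested families on the defence list, 0 passed in either direction (limma), beside 7.59% higher and 1.27% lower among all 79, with a median log2 change of 0.02 and 6 positive and 5 negative changes. miR472, which targets genes of NLR immune receptors, came nearest, at 1155, 1255 and 1823 CPM in untreated and 938.6, 820.3 and 787.2 CPM in Alternaria libraries (log2 -0.71, adjusted p = 0.132). The groups did not overlap. miR393, which targets auxin receptors and is known from antibacterial defence, had a log2 change of 0.28 (adjusted p = 0.507), miR160 of -0.47 (adjusted p = 0.397) and miR858, a regulator of MYB factors, of -0.66 (adjusted p = 0.728). For miR858 1 untreated and 1 Alternaria library were listed at 0.

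Apart from miR164, none of the 5 auxin families and none of the 12 developmental families passed. The auxin list had a median log2 change of -0.41, with miR167 at -0.41 and miR390 at -0.29, and the development list one of -0.27, with miR171 at -0.73 (adjusted p = 0.0853) and miR319 at -0.61 (adjusted p = 0.183). Neither member of the sulfate and nitrogen list passed; miR395, which targets sulfate transport and assimilation, stood at 0.06 and miR169, which targets NF-YA factors, at -0.49. The 7 triggers of phased siRNAs had a median of -0.10, and none of them passed. The 3 families listed as partners of other ARGONAUTEs, miR390, miR165 and miR166, had one of -0.29, and none passed. Of these, miR165 and miR166 were nevertheless among the 10 most abundant families in the AGO1 libraries. Among 35 tested young families, 3 rose (miR163, miR827 and miR846), none fell and 32 did not pass, with a median of -0.05, where 6 of all 79 families (7.59%) rose. On the secondary metabolism list, miR163 rose and miR858 did not pass, with a median of 0.25. These lists overlap, and each count covers tested families only.

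**Figure D3:**
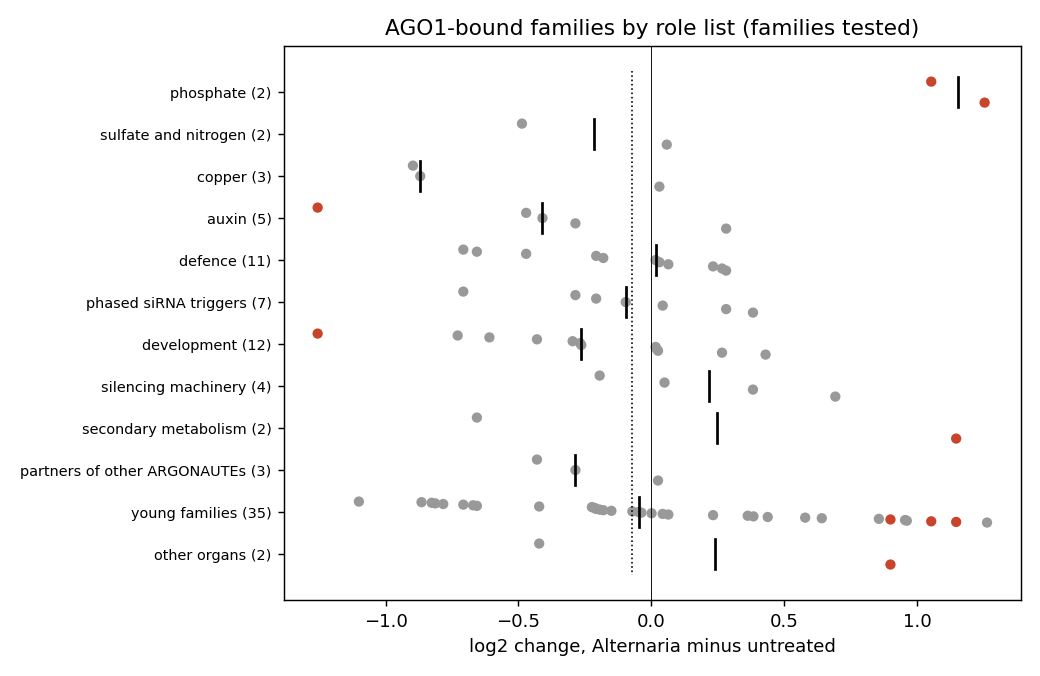
Points are tested families placed by log2 change (Alternaria minus untreated) within each role list, with the number tested in parentheses; red points passed the test, black bars are list medians and the dotted line is the median of all 79 families. Both phosphate families lie right of 1.00, and the copper median of -0.87 is the leftmost.

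Distinct sequences were then tested on their own, since a family sum can hide a change in 1 of its members. Of 267 tested sequences, 11 (4.12%) were higher and 5 (1.87%) were lower at an adjusted p under 0.05, while 30 and 39 had an unadjusted p under 0.05. In 36 sequences (13.5%) all Alternaria libraries lay above all untreated ones, and in 35 (13.1%) below. Of the 16 sequences that passed, 13 began with U, against 206 of the 267 tested, and 8 were 21 nt long, against 116 of those tested. Of these, 8 belong to families whose sum did not pass.

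miR396 represses GROWTH-REGULATING FACTOR genes, and its sum had a log2 change of 0.02. The 21 nt form of miR396a-5p nevertheless rose, from 946.0, 1259 and 1572 CPM in untreated to 2531, 2421 and 3544 CPM in Alternaria libraries (log2 1.18 ± 0.27, adjusted p = 0.0177). miR396b-5p, with 90.7% of the family's reads, stood at 21489, 32399 and 29906 CPM against 25400, 26552 and 33629 CPM (log2 0.04 ± 0.29, 95% interval -0.57 to 0.65, adjusted p = 0.951). The groups were apart for miR396a and overlapped for miR396b. As a share of the reads of both 21 nt forms within each library, a measure that needs no scaling, miR396a took 4.22, 3.74 and 4.99% in untreated and 9.06, 8.36 and 9.53% in Alternaria libraries. Mock libraries stood at 5.47, 6.80 and 10.0%, so that they overlapped the Alternaria group. The mock value of miR396a-5p, 2122 CPM on average, did not differ from Alternaria past the threshold (adjusted p = 0.578).

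The 18 nt form that lacks the first bases of miR396a-5p and so has another seed rose too, from 48.4 ± 9.74 to 106.5 ± 43.5 CPM (log2 1.07 ± 0.30, adjusted p = 0.0408).
miR396a-5p 18 nt: cACAGCTTtcttgaactg
miR396b-5p 18 nt: cACAGCTTtcttgaactt
This shorter pair, read from the same libraries and chosen after its test was known, differs by G18T. miR396a took 83.6, 85.4 and 86.3% of the short pair in untreated and 90.9, 91.9 and 93.4% in Alternaria libraries. Mock libraries stood at 88.4, 86.8 and 93.2%, which overlapped the Alternaria group. The exact two-sided permutation test of Alternaria against untreated gave p = 0.1, its smallest possible value. The call for the 18 nt form was kept in only 2 of 9 fits without 1 library, with an adjusted p of up to 0.174, and that for the 21 nt form in 6 of 9, with an adjusted p of up to 0.0828.

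miR841 gave a second pair from related genes.
miR841b-5p 21 nt: tACGAGCCactggaaactgaa
miR841a-5p 21 nt: tACGAGCCacttgaaactgaa
They share their seed and differ by G12T. miR841b-5p rose from 29.8, 70.6 and 130.7 CPM to 150.0, 200.5 and 186.5 CPM (log2 1.43 ± 0.39, adjusted p = 0.0408), and miR841a-5p, the more abundant form, stood at 863.2, 1543 and 1989 CPM against 2060, 2043 and 2236 CPM (log2 0.61 ± 0.29, adjusted p = 0.201). Both forms had their lowest value in untreated replicate 1. The call of miR841b-5p was kept in 2 of 9 fits that left out 1 library, with an adjusted p of up to 0.144. Mock libraries averaged 122.8 CPM of miR841b-5p, between the other groups.

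On the lower side, 2 sequences of the miR398 family fell while its main sequence, miR398b-3p with 99.7% of the reads, did not. miR398b-5p of 20 nt, from the arm whose strand is usually discarded, held 165, 82 and 82 reads in untreated libraries, 21, 49 and 49 in mock libraries, and was listed at 0 in all 3 Alternaria libraries (adjusted p = 0.00357). With the listing limit of 28 reads per library in place of 0, it was at least 3.13-fold lower in Alternaria. It stayed past the threshold in all 9 fits without 1 library. miR398b-3p, the guide that matches the superoxide dismutase transcripts, had a log2 change of 0.12 ± 0.30 (adjusted p = 0.868). miR398a-3p, which differs from miR398b-3p by T21G, held 60, 56 and 72 reads in untreated libraries, and 17 in Alternaria replicate 1 and was listed at 0 in the other two (adjusted p = 0.0290). With values at the listing limit it did not pass (adjusted p = 0.110), and it passed in 3 of 9 fits without 1 library.

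Shortened forms of other miRNAs fell too. The 18 nt form of miR408-3p stood at 64.3, 41.8 and 24.7 CPM in untreated and 13.1, 15.8 and 14.1 CPM in Alternaria libraries (log2 -1.45 ± 0.31, adjusted p = 0.0143), while the main form of 20 nt had a log2 change of -0.59 ± 0.28 (adjusted p = 0.196). All 6 tested sequences of the miR408 family had negative changes. The 20 nt form of miR850-5p fell from 23.1, 26.5 and 12.4 CPM to 6.80, 3.14 and 5.19 CPM (log2 -1.83 ± 0.33, adjusted p = 0.00357), while the main form of 22 nt, with 90.5% of the reads, stood at -0.50 ± 0.28 (adjusted p = 0.263). As a share of both forms in each library, the 20 nt form took 5.61, 3.89 and 2.30% in untreated and 2.01, 0.784 and 1.43% in Alternaria libraries. Its call was kept in all 9 fits without 1 library. For the 18 nt form of miR408-3p it was kept in 5 of 9, with an adjusted p of up to 0.0828.

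The last higher sequence was an 18 nt form of miR168a-5p, near the listing limit. It had 26 reads in untreated replicate 1, was listed at 0 in the others, and had 121, 60 and 45 reads in Alternaria libraries (adjusted p = 0.0325). It was kept in 3 of 9 fits without 1 library.

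**Figure D4:**
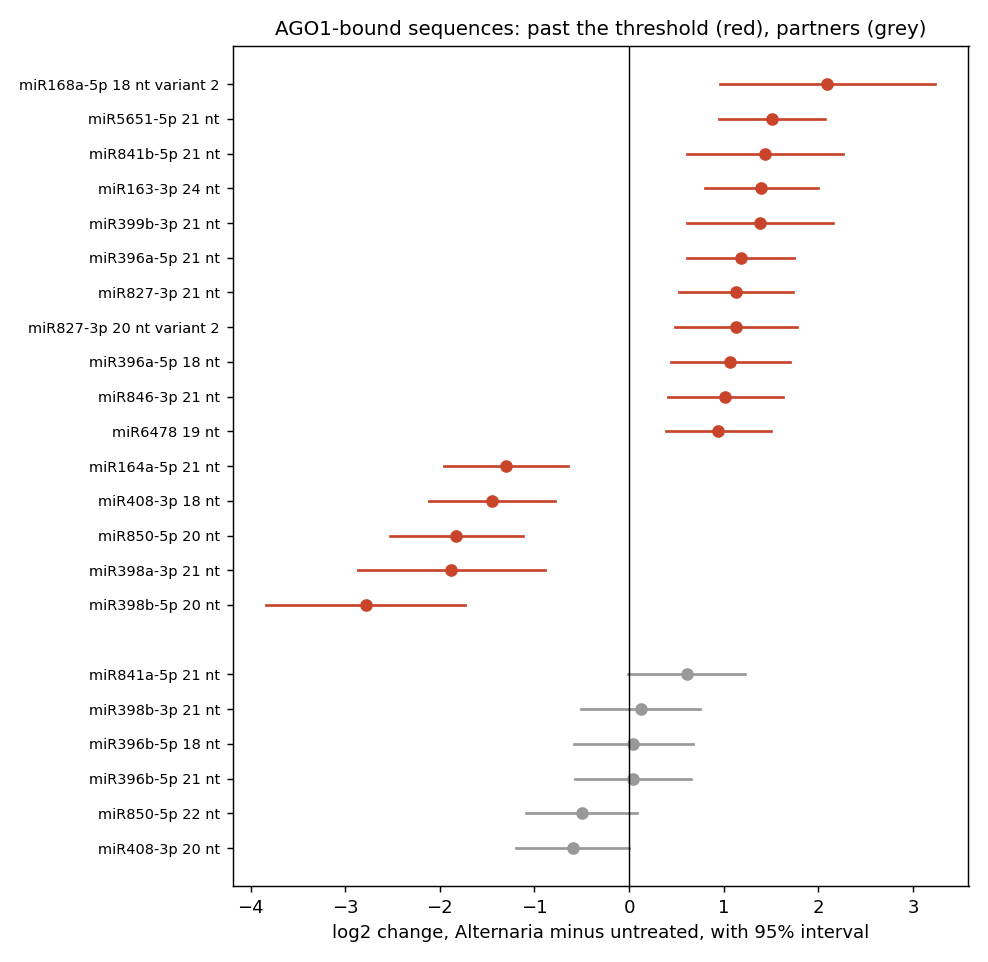
Log2 change (Alternaria minus untreated) with its 95% interval for the 16 sequences past the threshold in red and for 6 more abundant or paired forms of the same families in grey. The intervals of the grey forms include 0, for example -0.57 to 0.65 for miR396b-5p of 21 nt; for sequences listed at 0 the plotted value depends on the pseudocount.

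**Figure D5:**
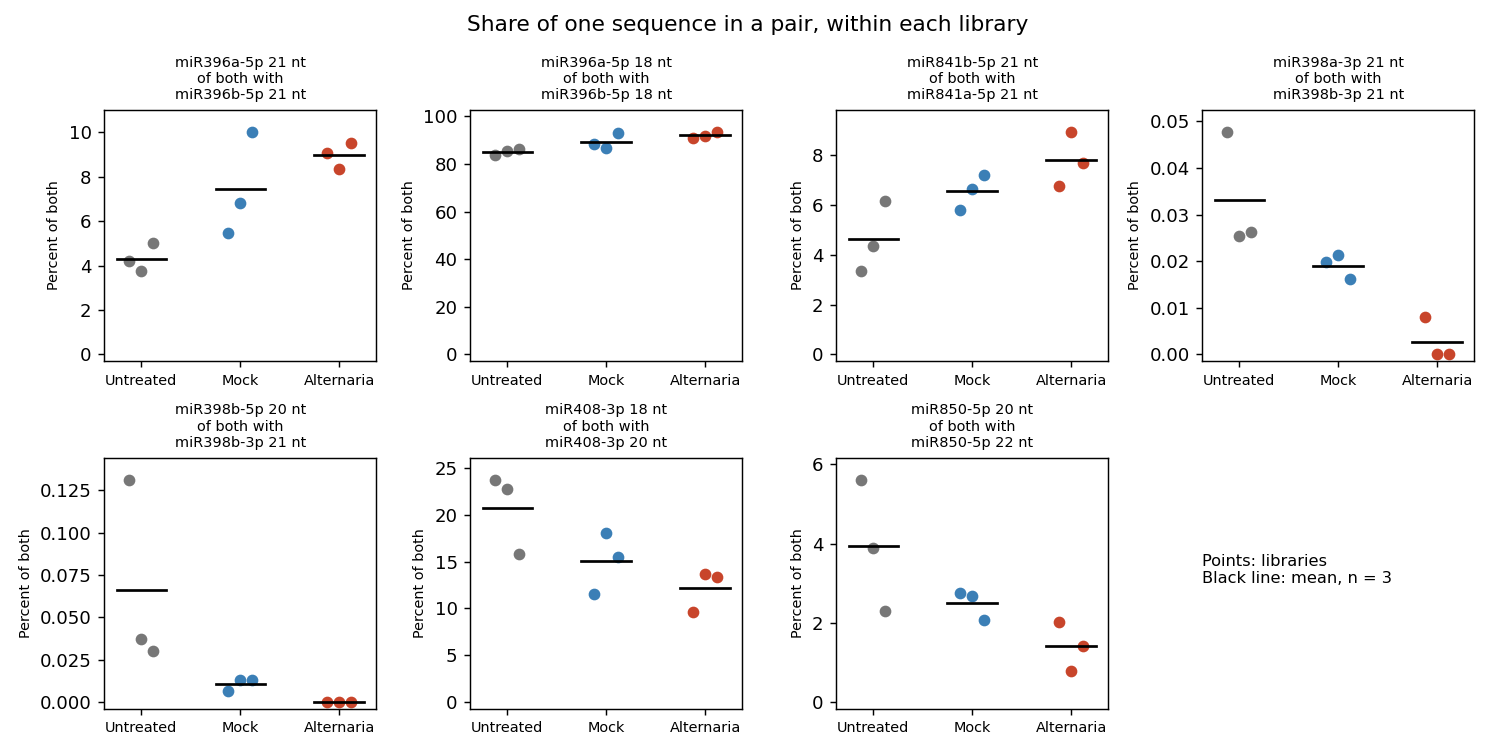
Each panel gives, within each library, the reads of 1 sequence as a percentage of the reads of both sequences named, with black lines at group means (n = 3). In every panel the Alternaria points lie on 1 side of the untreated points; pairs were chosen after the tests of their sequences were known, and mock points overlap Alternaria for the miR396, miR841 and miR408 pairs.

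By length, reads of 24 nt made up 0.0107, 0.0168 and 0.0217% of miRNA reads in untreated and 0.0402, 0.0476 and 0.0315% in Alternaria libraries. Nearly all of these reads were the main form of miR163, so this share is not independent of that result. The groups did not overlap (exact two-sided permutation test, p = 0.1, the smallest that 3 against 3 allow, adjusted p = 0.5 over 10 shares). Reads outside 20 to 24 nt made up 4.68, 3.26 and 1.83% of untreated and 1.56, 1.78 and 1.56% of Alternaria libraries, again without overlap and with the same p. Reads of 21 nt made up 76.6 ± 2.82% and 79.8 ± 2.08% (p = 0.2 by the same exact test). Reads that began with U made up 99.77 ± 0.00557% and 99.79 ± 0.0170% (exact p = 0.3).

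The levels in total small RNA stood beside these changes as follows, in CPM scaled over all 18 libraries. miR163 averaged 698.2 ± 636.4 CPM in untreated total libraries, of which 1 was listed at 0, and 7753 ± 3201 CPM in Alternaria total libraries. miR827 stood at 346.4 ± 20.5 against 1822 ± 173.4 CPM, and miR399 at 224.1 ± 28.02 against 493.9 ± 55.0 CPM. miR5651 was listed at 0 in the 3 untreated total libraries and averaged 24.99 ± 13.75 CPM in Alternaria, where the listing limit in those untreated libraries was 11.2, 23.3 and 25.5 CPM, so that no change could be told from the listing. miR846 went from 26.4 ± 12.9 to 106.2 ± 49.4 CPM, and miR6478 from 2577 ± 1176 to 770.5 ± 524.0 CPM, the opposite order to AGO1 libraries. Total and AGO1 libraries were made by different protocols, and miRNAs took 2.53 to 2.76% of genome-matched reads in untreated total libraries and 7.76 to 11.7% in Alternaria total libraries; the part of this in the result was not tested.

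Whether the change with Alternaria differed between AGO1 and total libraries was tested as an interaction over 97 families, of which 14 (14.4%) passed. Among these, miR4995, miR5368, miR6173, miR8175 and miR866 were listed at 0 in all AGO1 libraries. miR400, miR838 and miR5651 were listed at 0 in all untreated total libraries. Their interaction values depend on the listing limit and the pseudocount, so 14.4% is not to be read as the share of families whose change differed. Its median over all families was -0.52 with the scaling used and 0.03 with median-of-ratios scaling, so values are to be read against that shift. miR827 (log2 -1.59, adjusted p = 0.0171) lay below the median, and miR6478 (2.47, adjusted p = 0.0148) lay above it. For miR5651 the listing limit in total libraries leaves the interaction undetermined. With median-of-ratios scaling miR827 no longer passed (adjusted p = 0.0990). It did not pass without Alternaria total replicate 1 (adjusted p = 0.0626) or Alternaria AGO1 replicate 3 (adjusted p = 0.0551) either. The interaction of miR163 (log2 -5.27 ± 2.62, adjusted p = 0.196) did not pass. This family was listed at 0 in untreated total replicate 3, against 1246 and 849 CPM in replicates 1 and 2, so the value depends on the pseudocount. Without replicate 3 the interaction was -1.94 (adjusted p = 0.0155), and without replicate 1 it was -7.07 (adjusted p = 0.0464). The interactions of miR399 (adjusted p = 0.860), miR846 (adjusted p = 0.123) and miR164 (adjusted p = 0.129) did not pass. That of miR846 did without untreated total replicate 3 (adjusted p = 0.0426).

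In the authors' deposited table of this comparison, 6 families are listed, which are those named here as past the threshold except miR6478. The authors' deposited table gives log2 ratios of 1.55 for miR5651, 1.202 for miR163, 1.30 for miR399, 1.09 for miR827 and 0.97 for miR846, each with an adjusted p under 0.05. For miR164 the authors' deposited table gives -1.26 with an adjusted p of 0.0692.

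The number of families past the threshold depended on single libraries. Without Alternaria replicate 2 no family passed with limma (0 higher and 0 lower), and without Alternaria replicate 3 only 1 rose and 1 fell. Leaving out untreated replicate 1 left 3 higher and 0 lower, untreated replicate 2 left 3 and 1, and mock replicate 1 left 3 and 0, whereas leaving out untreated replicate 3 gave 9 and 5. In the fit of all 18 libraries none of the 6 higher families passed, with 0 higher, and miR164 did (adjusted p = 0.0324). All 7 families kept their direction in every alternative run.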

How the data were processed

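Small RNA reads were trimmed with cutadapt after FastQC, per the submitters' processing notes, which name build TAIR10. The deposited abundance table, made with miRProf per its headers, gives whole read numbers per sequence and run; lines that only name a family interrupt each column, which is why the unit was set to other rather than counts. The authors' deposited comparison tables hold group means as signal, a fold ratio, log2 ratios and p-values. The 2 runs of each library were summed. Values are CPM of miRNA reads, scaled with trimmed mean of M-values factors (trim 0.3 and 0.05). Features with 10 counts at the median depth in 3 libraries and a total of 15 were tested with limma 3.58.1 (R 4.3.3) on log2(CPM + 1), with trend and robust moderation, in 1 fit of the 9 AGO1 libraries, at an adjusted p of 0.05 by Benjamini-Hochberg. The interaction was fitted on 18 libraries. limma on log2(CPM + 1) replaced the count model first planned, since the unit had been set to other, although the values are whole read numbers.

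Named families were those past the threshold, the 10 most abundant and up to 4 of each role list by p. The main sequences of these were named too. miR841, miR850 and the sequence pairs were chosen after their values were seen. The families, lists and comparisons were chosen with earlier results of these data known. The label names biological replicates. Runs of 1 library differed by 1.93 to 3.02 (chi-square per degree of freedom) and replicates by 464.6 or more, so no library was counted as a duplicate. The RefSeq copy of the genome gave the number of matches in the table for 461 of 476 sequences. The tests were also run on simulated data, with the same spread for every feature and changes set only in abundant features. Sequences near the listing limit were therefore not covered by it. Python 3.11.15, pandas 2.3.3 and scipy 1.17.1 were used. Standard errors and 95% intervals come from limma over replicate libraries, and listing limits cover counting only.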

Additional observations from a re-analysis of the deposited data

Results flagged for a closer look

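The interaction test gave an adjusted p under 0.05 for 7 of the 34 named families, beside 14.4% of all 97 tested. Named families were chosen in part by their change in AGO1 libraries, which enters the interaction. For 2 of the 7, miR5651 and miR838, the test can show no difference between AGO1 and total libraries. The interaction log2 values, AGO1 minus total, were -3.37 for miR5651, -1.59 for miR827, -1.87 for miR408, -4.26 for miR840, -4.16 for miR838, 1.99 for miR169 and 2.47 for miR6478, beside a median of -0.52 over all families tested. With median-of-ratios scaling the values of miR408, miR827 and miR840 did not pass (adjusted p = 0.0844, 0.0990 and 0.0990), and those of miR169, miR5651, miR6478 and miR838 did. miR5651 and miR838 were listed at 0 in all 3 untreated total libraries, where the listing limit was 11.2, 23.3 and 25.5 CPM, and averaged 24.99 and 12.5 CPM in Alternaria total libraries, so their values follow from the pseudocount and the listing allows for no change in total RNA. miR840 was listed at 0 in 1 untreated total library, and its value depends on the pseudocount too. In total libraries miR408 stood at 1772 ± 317.7 CPM in untreated and 2962 ± 575.4 CPM in Alternaria plants, and miR169 at 878.5 ± 291.9 and 126.0 ± 8.55 CPM (SD, n = 3).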

How the results depend on the processing

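Counts of families past the threshold were 6 higher and 1 lower; leaving out each library gave 0 to 9 higher and 0 to 5 lower. With all 18 libraries fitted together 0 families were higher and 1 was lower (limma). The number lower was 3 with a mean of at least 100 reads, a pseudocount of 5, limma-voom or the 6 libraries alone, and 2 with a pseudocount of 0.5, run 1 alone, run 2 alone or shared sequences split among families. For sequences, 11 higher and 5 lower became 1 to 24 higher and 2 to 26 lower without single libraries; the extremes of 24 and 26 came without untreated replicate 3, and 1 higher without untreated replicate 2. The number higher was 2 with library totals, 5 with genome-matched scaling, 3 with 6 libraries, 7 with 18 libraries and 4 with run 1. The number lower was 8 with genome-matched scaling or a pseudocount of 5, 2 with 6 libraries, 3 with 18 libraries and 13 with unlisted values at 14 reads per run, an alternative chosen after seeing the data. For the interaction, 6 higher and 8 lower became 6 to 10 and 4 to 14 without single libraries, and 4 lower with median-of-ratios scaling. The cause was not tested. DESeq2 and edgeR were not run, since the unit had been set to other, although the values are whole read numbers.

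Correlations of deviations between same-numbered libraries, replicates 1 to 3, were -0.12, -0.022 and -0.26 for untreated and Alternaria, 0.14, 0.013 and 0.15 for untreated and mock, and 0.051, 0.040 and 0.017 for mock and Alternaria; not every one was over 0.1, so numbers were not taken as pairs. With the replicate block, 6 families were higher and 5 lower, 15 sequences higher and 16 lower, and in the interaction 6 and 8.

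Values near 0 changed sign. In the fit of 6 libraries alone, log2 was -0.045 for miR166, -0.051 for miR159, -0.054 for miR396, -0.028 for miR161, -0.040 for miR398, -0.00883 for miR395 and -0.021 for miR162. With 18 libraries it was -0.23, -0.24, -0.24, -0.22, -0.23, -0.18 and -0.21 in the same order. Run 1 alone gave -0.060 for miR395 and 0.017 for miR838, and run 2 alone -0.00377 for miR159 and -0.010 for miR396. Over single libraries left out, log2 ranged from -0.44 to 0.10 for miR158, -0.16 to 0.19 for miR159, -0.041 to 0.21 for miR161, -0.029 to 0.13 for miR162, -0.22 to 0.27 for miR166, -0.17 to 0.31 for miR395, -0.15 to 0.099 for miR396, -0.13 to 0.30 for miR398, -0.44 to 0.10 for miR838 and -1.69 to 0.25 for miR858. The sequence miR396b-5p of 21 nt was at -0.044 with library totals, -0.060 with genome-matched scaling, -0.047 with run 1 and -0.050 with unlisted values at 14, and its 18 nt form at -0.036, -0.049, -0.095 (run 2) and -0.039. Without single libraries these ranged from -0.11 to 0.12 and -0.14 to 0.18, and miR398b-3p from -0.15 to 0.41. The interaction of miR399 was 0.45 with median-of-ratios scaling and -0.31 to 0.045 without single libraries. With each sequence counted once, the share beginning with U differed by -0.113 percentage points (Alternaria minus untreated). Depth limits sequences of 28 or fewer reads per library.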
